A study of Mus musculus with 18 samples.

Results

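The SLC25 genes encode the carriers that move metabolites across the inner mitochondrial membrane. The genes described here were the 47 protein-coding genes of the GRCm38 annotation whose symbol is Slc25a followed by a number, out of 34989 genes and 21986 protein-coding genes with transcripts in the deposited data. The rule for their choice used the symbol and no measured value, although earlier results of these data were known when it was set. RNA had been sequenced from the left ventricle (LV) and the right ventricle (RV) of C57B/L6 mouse hearts, labelled as 12 weeks old. All hearts, including those of the 0 h groups, had been flushed with HTK, a cardioplegic preservation solution. The hearts were kept on ice in HTK for 0, 4, or 8 h and then perfused ex vivo with Krebs buffer for 1 h before the ventricles were frozen. Each ventricle and storage time had 3 libraries, 18 in all. The 0 h groups are thus reperfused hearts without storage, not untouched hearts, and no group was stored without reperfusion. The labels give no sex and do not state which libraries came from the same heart.

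Carriers of this family share a fold built from repeated pairs of membrane-spanning helices, and most exchange a substrate of the matrix for one of the cytosol. In cardiomyocytes the ADP/ATP carriers and the phosphate carrier supply the ATP synthase and export its product. The oxoglutarate and aspartate-glutamate carriers form the malate-aspartate shuttle that brings reducing equivalents into the matrix, and the carnitine-acylcarnitine carrier admits fatty acids for oxidation. Other members carry coenzyme A, pyrimidine nucleotides, S-adenosylmethionine, glutathione, iron and amino acids. Slc25a46 resides in the outer membrane and Slc25a17 in peroxisomes.

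The members rose and fell in small numbers. Slc25a36 and Slc25a33, which carry pyrimidine nucleotides, and Slc25a25, a calcium-regulated ATP-Mg/phosphate carrier, were higher in RV after 4 h of storage than after 0 h. Slc25a42, the carrier of coenzyme A, was lower after 8 h in both ventricles. To show the stretches at which these genes start, 5 promoter windows are printed here from RefSeq on GRCm38.p6, each running from 250 bases before to 50 bases after an annotated start, 5′ to 3′ on the strand of the gene, which is the minus strand for all 4 genes. Capitals mark matches on either strand to TGACGTCA, the cAMP response element bound by CREB, to its 5-letter part TGACG, or to CACGTG, an E-box. The Slc25a25 windows are at chr2:32451421-32451720 (upstream start) and chr2:32424017-32424316 (internal start), the Slc25a36 window at chr9:97110992-97111291, the Slc25a33 window at chr4:149774218-149774517, and the Slc25a42 window at chr8:70212232-70212531.
Slc25a25 upstream: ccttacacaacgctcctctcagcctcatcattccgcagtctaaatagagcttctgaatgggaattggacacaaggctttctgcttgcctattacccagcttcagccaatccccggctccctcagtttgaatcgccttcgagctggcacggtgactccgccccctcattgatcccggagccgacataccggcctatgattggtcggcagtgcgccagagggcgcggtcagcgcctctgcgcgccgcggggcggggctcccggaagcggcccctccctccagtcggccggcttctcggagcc
Slc25a25 internal: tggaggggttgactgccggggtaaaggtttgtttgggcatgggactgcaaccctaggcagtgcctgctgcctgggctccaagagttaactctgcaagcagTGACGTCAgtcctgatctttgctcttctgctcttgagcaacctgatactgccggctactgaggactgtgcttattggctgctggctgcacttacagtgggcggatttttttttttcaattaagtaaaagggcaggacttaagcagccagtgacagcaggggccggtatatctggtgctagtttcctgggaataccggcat
Slc25a36: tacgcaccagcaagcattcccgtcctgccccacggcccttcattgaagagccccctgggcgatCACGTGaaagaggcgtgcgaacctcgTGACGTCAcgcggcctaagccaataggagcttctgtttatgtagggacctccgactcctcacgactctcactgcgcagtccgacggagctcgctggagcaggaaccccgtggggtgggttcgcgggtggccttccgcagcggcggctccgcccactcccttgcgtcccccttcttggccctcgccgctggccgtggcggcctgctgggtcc
Slc25a33: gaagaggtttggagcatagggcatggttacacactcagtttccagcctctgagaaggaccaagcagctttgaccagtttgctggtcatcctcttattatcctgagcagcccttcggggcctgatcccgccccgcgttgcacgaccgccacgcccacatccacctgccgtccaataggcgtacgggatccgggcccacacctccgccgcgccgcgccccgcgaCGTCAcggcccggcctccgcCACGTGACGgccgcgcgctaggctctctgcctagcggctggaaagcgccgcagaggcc
Slc25a42: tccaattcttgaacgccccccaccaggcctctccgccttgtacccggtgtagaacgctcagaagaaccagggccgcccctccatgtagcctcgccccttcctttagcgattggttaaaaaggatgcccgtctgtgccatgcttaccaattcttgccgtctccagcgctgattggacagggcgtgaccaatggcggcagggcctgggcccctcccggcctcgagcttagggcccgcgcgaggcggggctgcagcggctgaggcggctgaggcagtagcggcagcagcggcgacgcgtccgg

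Of the 47 members, 36 had at least 1 RefSeq window, 46 windows in all. The full element TGACGTCA was found in 2 of the 46 windows, those of the internal Slc25a25 start and of Slc25a36, against 1.79% of all 32851 windows of the same length. It lay 150 bases before the internal Slc25a25 start and 161 bases before the Slc25a36 start. The 5-letter part TGACG, which is also counted inside each full element, was in 13 member windows (28.3%) and in 20.8% of all windows. In Slc25a33 it occurred 28 and 4 bases before the start, beside an E-box at 8 bases. CACGTG was in 8 member windows (17.4%) against 7.15% of all windows. Windows of a gene can overlap. Overlapping Slc25a14 windows hold the same CACGTGACG stretch, which is counted in each of them for both TGACG and CACGTG. The AP-1 motif TGANTCA was in 2 member windows (4.35%) against 7.81%, the oestrogen-related receptor element TCAAGGTCA in 0 against 0.423%, and the GC box GGGCGG in 38 (82.6%) against 35.7%. The Slc25a42 window held a GC box and none of the other motifs. A match describes letters only, and binding of any factor was not measured.

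Levels between genes were compared in TPM, a transcript abundance scaled for transcript length and for the total of the library. Slc25a4, the ADP/ATP carrier that predominates in heart, was highest with 2722 ± 480 TPM (mean ± SD, n = 18) and held 54.5% of the summed TPM of the 47 members. Slc25a3, the phosphate carrier, followed with 1141 ± 243 TPM and 22.8%. Slc25a11, the oxoglutarate/malate carrier, had 257 ± 64.6 TPM, and Slc25a5, a second ADP/ATP carrier, had 209 ± 27.6 TPM. The ranges of these overlapped, from 87.2 to 368 TPM for Slc25a11 and from 125 to 238 TPM for Slc25a5. Slc25a20, the carnitine-acylcarnitine carrier, had 93.9 ± 24.0 TPM and Slc25a12, the aspartate-glutamate carrier of excitable tissues, 80.6 ± 22.5 TPM, a difference within their spread. These 6 genes held 90.1% of the members' TPM. Slc25a34, of unsettled substrate, had 76.0 TPM and Slc25a39, a glutathione carrier, 64.8 TPM on average. Of the members with a call after storage, Slc25a25 had a mean of 28.0 TPM, Slc25a36 23.4 TPM, Slc25a33 22.1 TPM, Slc25a42 21.0 TPM and Slc25a27 1.81 TPM.

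**Figure D1:**
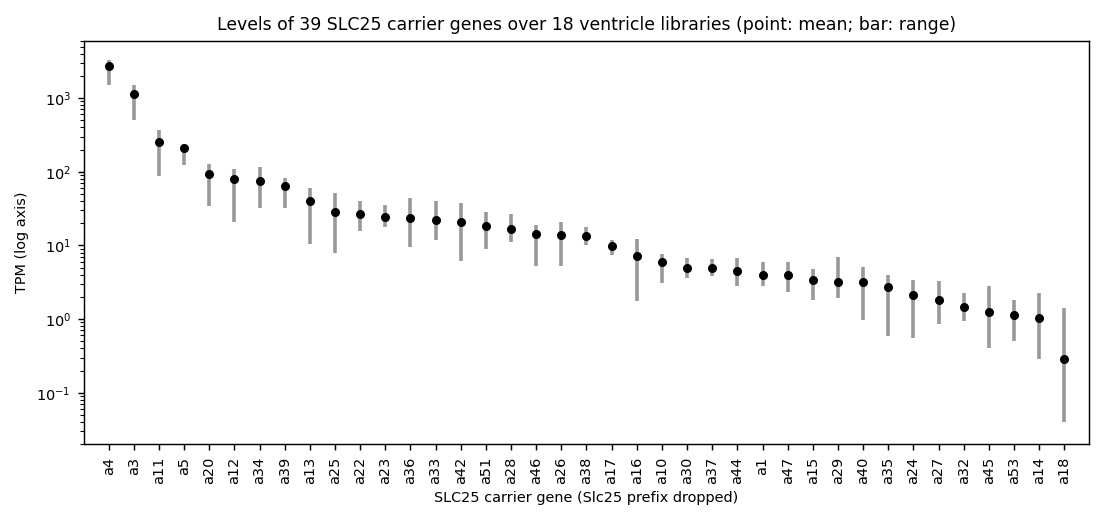
TPM on a log axis of 39 of the 40 tested SLC25 genes, 1 column per gene in order of the mean, with the mean (point) and the range over the 18 libraries (line). Slc25a4 at 2722 TPM and Slc25a3 at 1141 TPM stand above all others, and Slc25a18 is lowest at 0.283 TPM.

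For tests, counts were summed per gene, and 40 members passed the filter on low counts in each comparison. The 7 others were Slc25a2, an ornithine carrier (3 to 13 estimated counts per library), Slc25a21, the oxoadipate carrier (0 to 7.3), Slc25a31, the ADP/ATP carrier of the germ line (1 to 17), Slc25a41 (0 to 1), Slc25a43 (2 to 15.2), Slc25a48 (0 to 4.3) and Slc25a54, listed at 0 in all libraries. The ADP/ATP carriers of the ventricles were therefore Slc25a4 and Slc25a5, with Slc25a31 at no more than 0.304 TPM. Levels within a gene are given below in CPM, counts scaled to library sizes normalized by TMM and not to gene length. A gene was called where its adjusted p was under 0.1 and it changed more than 1.5-fold, in edgeR's quasi-likelihood test with Benjamini-Hochberg adjustment over all genes tested, and changes are log2 differences with the standard error.

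The libraries held 22552581 to 46236771 estimated counts, 22.7 to 34.4% of them from the mitochondrial genome. Replicate 3 of RV at 8 h stood apart. Its members summed to 4801 CPM against 6141 to 8163 CPM in the other 17 libraries, and the median member was lower than its 0 h mean by a log2 value of -0.510, while the median of all genes over 5 CPM was at -0.233. The nearest was replicate 3 of LV at 8 h, at -0.257 for the members and -0.119 for all genes. The summed level of 6 cardiomyocyte markers was also lowest in these libraries, 26450 CPM in the RV library and 38790 CPM in the LV library against 44010 to 63320 CPM in the others. The sum was led by Myh6, a myosin heavy chain, at 12720 CPM in the RV library, 19030 CPM in the LV library and 23200 CPM or more in the others. Actc1 (2017 and 4616 CPM) and Ryr2 (381 and 613 CPM) were also lowest in these libraries. Tnnt2 was lowest in the RV library (4437 CPM) but within the range of LV at 0 h in the LV library (5914 CPM). In the LV library Tnni3 (3118 CPM) and Myl2 (5503 CPM) were above each LV library of 0 h, and in the RV library Myl2 (4292 CPM) was within the range at 0 h. In bulk tissue fewer cells of a type cannot be told apart from less RNA per cell. The 4 neutrophil markers summed to 0.982 to 2.51 CPM at 0 h and to 9.83 to 18.1 CPM at 8 h, in each 8 h library above each 0 h library. Csf3r led this sum in each 8 h library, at 6.783 to 14.22 CPM. In replicate 2 of RV at 8 h Csf3r had 11.69 CPM, S100a8 and S100a9 had 0.1334 CPM each, and Retnlg had 0 CPM. The sum therefore mainly describes Csf3r. In RV after 8 h the macrophage markers Adgre1 and Mrc1 and the fibroblast marker Tcf21 were called higher and the pericyte marker Kcnj8 lower. The macrophage and pericyte genes named do not stand for their lists. In RV Rgs5, listed with Kcnj8, had 449.6 to 576.2 CPM at 0 h and 613.6 to 998.1 CPM at 8 h. Pdgfrb of the same list was lower like Kcnj8, at 71.71 to 81.54 CPM and 47.96 to 56.05 CPM. The macrophage markers summed to 106.5 to 152.8 CPM in RV at 0 h and to 246.3, 178.7 and 103.5 CPM at 8 h. Erythroid markers summed to 52.0 to 194 CPM in replicate 1 of the 4 stored groups and to 2.40 to 31.1 CPM in the other 14 libraries. The part of these shifts in the members' changes was not tested, and results without the RV library are given below.

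The transcript composition of Slc25a4 changed in the same libraries. An annotated retained-intron transcript of the gene, at chr8:46207970-46211030 and ending 1173 bases short of the gene's 3′ end, held 14.6 to 35.1% of the Slc25a4 TPM in 16 libraries. It held 2.38% in replicate 3 of LV at 8 h and 0.43% in replicate 3 of RV at 8 h. The remainder belonged to the protein-coding transcript. The difference in median log2 change between genes with transcripts over 4000 bases (2063 genes) and under 1000 bases (1242 genes) ran from -0.445 in replicate 3 of LV at 8 h to 0.267 in replicate 2 of RV at 0 h, and was -0.155 in replicate 3 of RV at 8 h. Whether RNA quality had a part in the levels of the members was not tested.

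**Figure D2:**
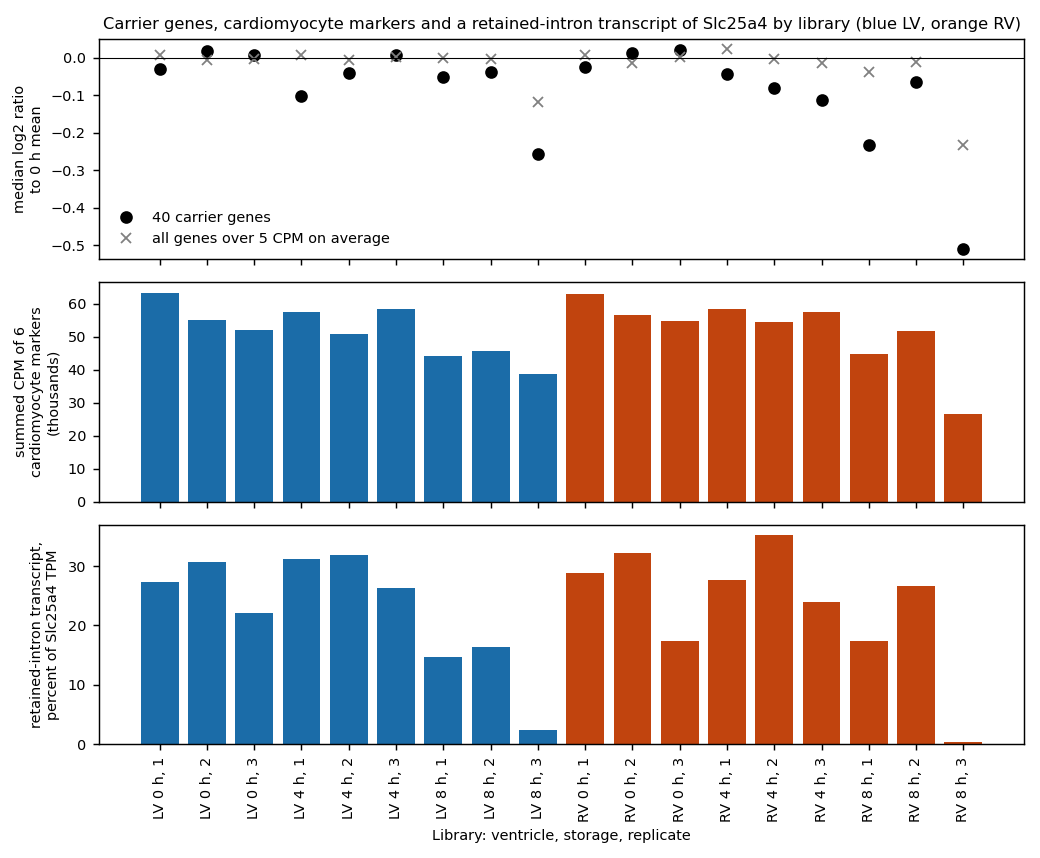
State of the 18 libraries, in order of ventricle and storage time. The panels give the median log2 ratio to the 0 h mean of the ventricle for members (dots) and all genes over 5 CPM (crosses), the summed CPM of cardiomyocyte markers in units of 1000 CPM (bars) and the retained-intron transcript as a percent of Slc25a4 TPM (bars), and replicate 3 of RV at 8 h is lowest in all 3 (-0.510, 26450 CPM and 0.43%).

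The first comparisons asked which members changed with storage before reperfusion. In LV after 4 h, 1 of the 40 members was higher and 0 were lower, beside 2.40% of all 14564 genes higher and 0.398% lower. In LV after 8 h, 0 were higher and 1 was lower, beside 5.46% and 1.26% of all genes. In RV after 4 h, 3 were higher and 3 lower, beside 6.17% and 3.91% of all 14622 genes, shares close to those of all genes. In RV after 8 h, 3 were higher and 2 lower, beside 13.0% and 5.26%. The median change of the 40 members was a log2 value of -0.03 in LV at 4 h, -0.18 in LV at 8 h, -0.05 in RV at 4 h and -0.31 in RV at 8 h. The median of all genes was -0.00, -0.02, 0.00 and -0.07 in the same order. Without replicate 3 of RV at 8 h, the RV medians at 8 h were -0.18 for members and -0.03 for all genes, with 1 member higher (Slc25a25) and 3 lower (Slc25a27, Slc25a42 and Slc25a53), beside 8.96% and 2.27% of all 14828 genes.

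**Figure D3:**
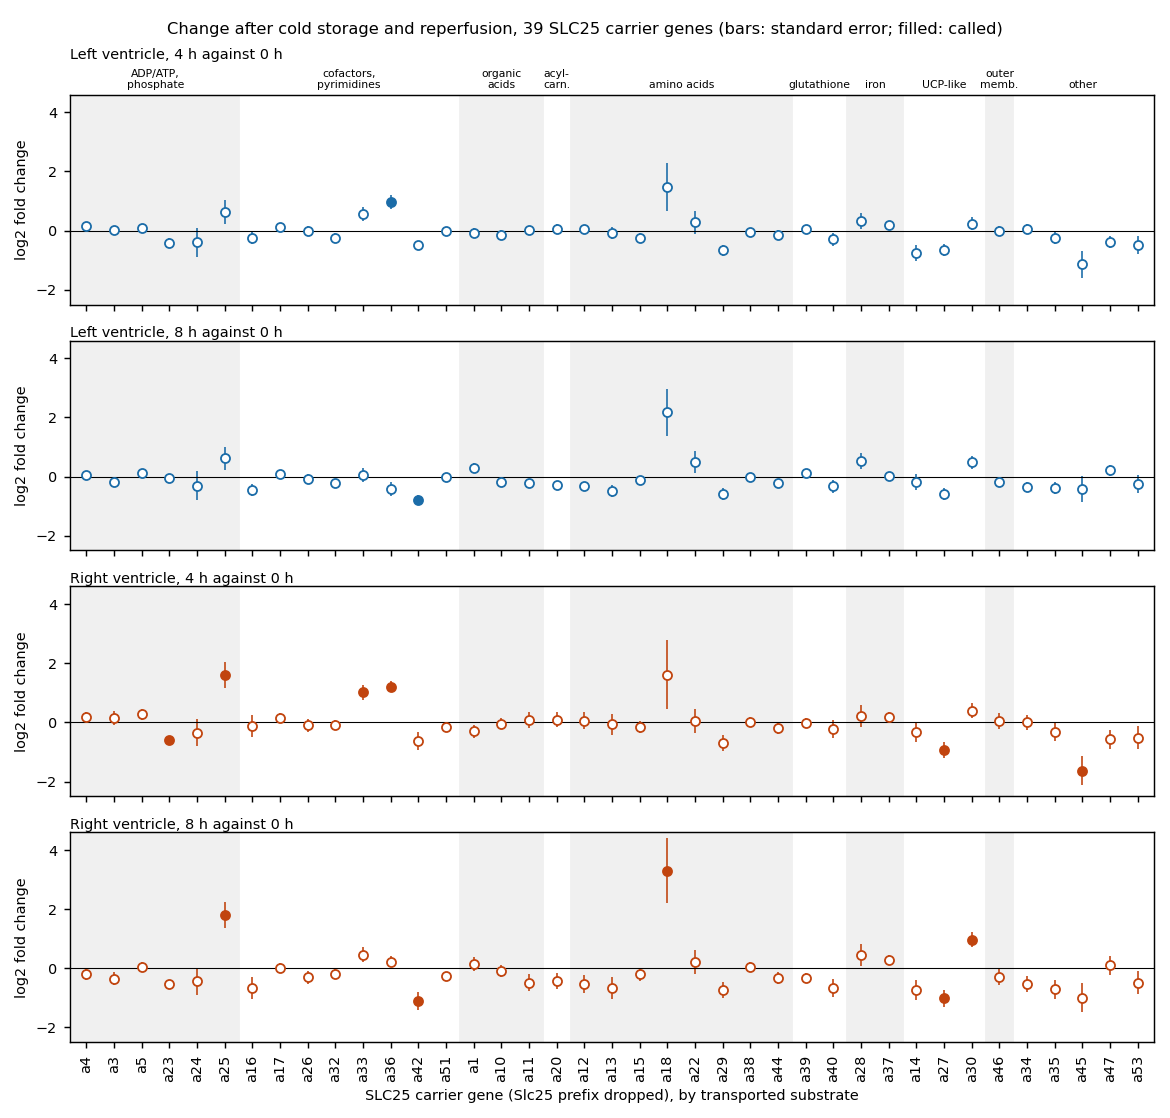
Log2 change against 0 h of 39 of the 40 tested SLC25 genes in LV and RV after 4 and 8 h, grouped by substrate, with filled points for genes called by edgeR's quasi-likelihood test. Most points lie between -1 and 1, and the called genes are Slc25a36 and Slc25a42 in LV and Slc25a18, Slc25a23, Slc25a25, Slc25a27, Slc25a30, Slc25a33, Slc25a36, Slc25a42 and Slc25a45 in RV.

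Among the adenine nucleotide carriers, Slc25a25 (chr2:32414487-32451445, minus strand) rose in RV. Its level in RV was 59.8, 22.1 and 19.2 CPM at 0 h in replicates 1, 2 and 3. After 4 h it was 124, 102 and 76.5 CPM, and after 8 h 109, 84.2 and 152 CPM. All 6 stored RV libraries were above the 3 libraries at 0 h. The change was 1.59 ± 0.44 after 4 h (3.02-fold, adjusted p = 0.067) and 1.79 ± 0.44 after 8 h (3.46-fold, adjusted p = 0.029). In LV the level was 69.9, 32.7 and 23.3 CPM at 0 h, 84.1, 55.5 and 54.8 CPM after 4 h, and 53.1, 49.8 and 89.4 CPM after 8 h, with overlap at both times. The LV changes of 0.63 ± 0.40 (adjusted p = 0.51) and 0.61 ± 0.40 (adjusted p = 0.38) did not pass. Replicate 1 was the highest 0 h library of both ventricles. The RV call at 4 h was lost without replicate 2 or 3 of 0 h or replicate 1 or 2 of 4 h (log2 1.31 to 2.31 over the 9 omissions, adjusted p up to 0.235), and that at 8 h without replicate 2 or 3 of 0 h (1.5 to 2.50, adjusted p up to 0.121).

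Both starts of Slc25a25 contributed to the rise. The 2 transcripts that begin at the upstream window printed above held 46.1 to 70.8% of the gene's TPM, and the transcript whose first base lies close to the internal window held 22 to 45.0%. In RV the upstream transcripts had 16.5, 7.48 and 4.17 TPM at 0 h, 28.1, 21.9 and 16.7 TPM after 4 h, and 23.3, 16.0 and 27.5 TPM after 8 h. The internal transcript had 11, 2.33 and 2.81 TPM at 0 h, 18.8, 20.5 and 12.1 TPM after 4 h, and 13.8, 13.8 and 21.2 TPM after 8 h. For the internal transcript all 6 stored libraries were above the 0 h libraries, whereas for the upstream transcripts 1 of the 6 (16.0 TPM) lay below the highest 0 h library. These isoform values are a description without a test, since the estimates divide reads between overlapping transcripts.

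Slc25a23 (chr17:57043711-57059863, minus strand), a paralog of Slc25a25 with the same kind of substrate, was lower in RV. It had 39.1, 48.3 and 44.5 CPM at 0 h, 28.2, 29.3 and 28.1 CPM after 4 h, and 31.5, 31.3 and 28.4 CPM after 8 h, so that every stored RV library was below every 0 h library. The change was -0.61 ± 0.12 after 4 h (adjusted p = 0.026) and -0.52 ± 0.12 after 8 h (adjusted p = 0.025), the latter a fold of 1.44, which is under the limit of 1.5. The 4 h call was lost with transcript-length offsets (adjusted p = 0.184) and without replicate 2 or 3 of 0 h or replicate 1 of 4 h (log2 -0.68 to -0.54, adjusted p up to 0.129). In LV the level was 35.9, 44.8 and 37.8 CPM at 0 h, 29.2, 26.7 and 32.5 CPM after 4 h, and 45.9, 36.0 and 31.9 CPM after 8 h. The LV libraries at 4 h were all below those at 0 h, and those at 8 h overlapped with them. Slc25a24, the remaining expressed paralog, ranged from 1.66 to 9.80 CPM and changed by -0.44 to -0.31 with standard errors of 0.46 to 0.48.

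The abundant members did not pass the test in either ventricle at either time. Slc25a4 (chr8:46206797-46211284, minus strand) had 3867, 3356 and 4158 CPM in LV at 0 h, 4172, 3823 and 4631 CPM after 4 h, and 3744, 3765 and 4221 CPM after 8 h. In RV it had 3885, 3250 and 4274 CPM at 0 h, 4563, 3876 and 4283 CPM after 4 h, and 3398, 3550 and 2929 CPM after 8 h. Its changes were between -0.20 ± 0.19 and 0.17 ± 0.19, and both extremes were those of RV. The paralog Slc25a5 had 170, 173 and 196 CPM in RV at 0 h, 215, 199 and 228 CPM after 4 h, and 199, 210 and 144 CPM after 8 h. All 3 RV libraries at 4 h were above those at 0 h, by 0.27 ± 0.17 (adjusted p = 0.45). In LV Slc25a5 lay between 181 and 216 CPM in all 9 libraries.

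Slc25a3 (chr10:91116574-91124059, minus strand) had 1326, 1188 and 1260 CPM in RV at 0 h, 1500, 1225 and 1409 CPM after 4 h, and 1090, 1188 and 670 CPM after 8 h. Its LV level was 1311, 1145 and 1272 CPM at 0 h and 1072, 1123 and 1058 CPM after 8 h, without overlap, a change of -0.19 ± 0.11 (adjusted p = 0.31). A single protein-coding transcript led in every library with 78.0 to 94.5% of the gene's TPM, lowest in replicate 3 of RV at 8 h. Slc25a11 had 415, 344 and 375 CPM in RV at 0 h and 299, 361 and 147 CPM after 8 h. Slc25a20 had 153, 147 and 131 CPM and 108, 149 and 62.2 CPM. For both genes replicate 2 at 8 h lay within the range at 0 h, and replicate 3 was lowest.

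The aspartate-glutamate carriers behaved like the other abundant members. Slc25a12 had 190, 193 and 170 CPM in RV at 0 h and 135, 184 and 65.6 CPM after 8 h, a change of -0.52 ± 0.30 (adjusted p = 0.25). The LV libraries had 187, 176 and 172 CPM at 0 h and 136, 173 and 115 CPM after 8 h. Slc25a13, its broadly expressed paralog, had 128, 122 and 98.3 CPM in RV at 0 h and 78.2, 111 and 30.9 CPM after 8 h, a change of -0.66 ± 0.36 (adjusted p = 0.23). After 4 h Slc25a12 lay between 177 and 197 CPM in the 6 libraries of both ventricles and Slc25a13 between 92.7 and 125 CPM. The libraries of Slc25a12 and Slc25a13 at 8 h overlapped with those at 0 h.

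Slc25a36 (chr9:97074961-97111157, minus strand) rose after 4 h in both ventricles. In RV it had 45.3, 45.3 and 41.3 CPM at 0 h, 108, 105 and 87.7 CPM after 4 h, and 56.0, 61.0 and 36.3 CPM after 8 h. For LV the values were 69.6, 45.4 and 42.3 CPM at 0 h, 112, 121 and 75.2 CPM after 4 h, and 34.2, 46.2 and 36.9 CPM after 8 h. In each ventricle the 3 libraries at 4 h were above all those at 0 h and 8 h. The change after 4 h was 1.20 ± 0.19 in RV (2.30-fold, adjusted p = 0.011), which was called in all 9 fits that left out 1 library. In LV it was 0.97 ± 0.24 (adjusted p = 0.096), and this call was lost without replicate 2 or 3 of 0 h, any replicate of 4 h, or replicate 1 or 2 of 8 h (log2 0.83 to 1.23, adjusted p up to 0.359). After 8 h the change was 0.22 ± 0.19 in RV (adjusted p = 0.42) and -0.42 ± 0.24 in LV (adjusted p = 0.32).

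Its paralog Slc25a33 (chr4:149744036-149774277, minus strand) followed a like course in RV, with 31.8, 21.3 and 28.8 CPM at 0 h, 57.2, 42.9 and 63.5 CPM after 4 h, and 38.3, 47.8 and 26.3 CPM after 8 h. The 4 h libraries did not overlap with those at 0 h, and the change was 1.02 ± 0.25 (adjusted p = 0.044). This call was lost without replicate 2 or 3 of 0 h or replicate 1 or 3 of 4 h (log2 0.86 to 1.17, adjusted p up to 0.181). In LV the level was 27.5, 19.1 and 27.3 CPM at 0 h, 41.0, 28.2 and 40.6 CPM after 4 h, and 22.5, 20.03 and 33.3 CPM after 8 h. The LV libraries at 4 h were also above those at 0 h, and the change of 0.57 ± 0.23 (adjusted p = 0.28) did not pass. After 8 h the change was 0.46 ± 0.24 in RV (adjusted p = 0.22) and 0.04 ± 0.23 in LV (adjusted p = 0.93).

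Among the cofactor carriers, Slc25a42 (chr8:70184340-70212305, minus strand) was lower after 8 h in both ventricles. The level in LV was 58.7, 75.9 and 74.2 CPM at 0 h, 44.2, 49.4 and 54.2 CPM after 4 h, and 37.3, 48.4 and 34.2 CPM after 8 h. In RV it had 71.5, 85.9 and 96.8 CPM at 0 h, 48.5, 58.2 and 54.3 CPM after 4 h, and 41.1, 57.3 and 20.4 CPM after 8 h. Every stored library was below every 0 h library of its ventricle, and replicate 3 of RV at 8 h was lowest. The change after 8 h was -0.80 ± 0.16 in LV (adjusted p = 0.037) and -1.10 ± 0.30 in RV (adjusted p = 0.045). After 4 h it was -0.50 ± 0.16 (adjusted p = 0.19) and -0.64 ± 0.30 (adjusted p = 0.26). The LV call was lost without replicate 2 or 3 of 0 h (log2 -0.92 to -0.71, adjusted p up to 0.169) and in a fit over all 18 libraries (adjusted p = 0.118). The RV call was lost without replicate 2 or 3 of 0 h or replicate 1 of 8 h (-1.46 to -0.78, adjusted p up to 0.141), and was kept without replicate 3 of 8 h (-0.78, adjusted p = 0.045).

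Other cofactor carriers also missed the threshold. In RV after 8 h the changes were -0.67 ± 0.37 for Slc25a16, linked to coenzyme A, -0.31 ± 0.23 for Slc25a26, the S-adenosylmethionine carrier, -0.27 ± 0.16 for Slc25a51, the NAD+ carrier, -0.18 ± 0.15 for Slc25a32, linked to folate and FAD, and 0.02 ± 0.17 for Slc25a17. The smallest adjusted p of these was 0.24, for Slc25a16. All 3 RV libraries at 8 h were below those at 0 h for Slc25a32 (5.72 to 6.33 CPM against 6.595 to 7.65 CPM) and Slc25a51 (31.1 to 47.2 CPM against 47.7 to 52.8 CPM).

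The carriers related to uncoupling proteins moved apart. Slc25a30 (chr14:75760117-75787037, minus strand) had 8.62, 9.35 and 10.5 CPM in RV at 0 h, 15.5, 11.8 and 9.59 CPM after 4 h, and 22.9, 11.8 and 20.2 CPM after 8 h. The 8 h libraries were above those at 0 h, with a change of 0.96 ± 0.26 (adjusted p = 0.040) that was not called without replicate 1 or 2 of 0 h or replicate 1 or 3 of 8 h (log2 0.80 to 1.20, adjusted p up to 0.136). In LV it had 8.49, 10.1 and 9.86 CPM at 0 h and 13.0, 10.6 and 16.3 CPM after 8 h, also without overlap, and the change of 0.49 ± 0.22 (adjusted p = 0.22) did not pass. Slc25a27 (chr17:43641891-43667214, minus strand) was lower in RV. It had 3.95, 6.33 and 7.28 CPM in RV at 0 h, 2.43, 3.46 and 3.19 CPM after 4 h, and 2.21, 2.89 and 3.48 CPM after 8 h. Its LV level was 4.52, 5.57 and 6.07 CPM at 0 h, 3.08, 3.57 and 3.57 CPM after 4 h, and 3.73, 4.10 and 2.82 CPM after 8 h. As for Slc25a42, every stored library was below every 0 h library of its ventricle.

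The Slc25a27 change in RV was -0.93 ± 0.28 after 4 h (adjusted p = 0.089) and -1.01 ± 0.29 after 8 h (adjusted p = 0.048). In LV it was -0.66 ± 0.19 (adjusted p = 0.14) and -0.59 ± 0.19 (adjusted p = 0.12), which did not pass. The RV call at 4 h was lost without replicate 2 or 3 of 0 h or any replicate of 4 h (log2 -1.15 to -0.75, adjusted p up to 0.307), and that at 8 h without replicate 2 or 3 of 0 h or replicate 1 of 8 h (-1.23 to -0.83, adjusted p up to 0.157). Slc25a14, the remaining gene of this group, lay at 0.489 to 1.82 CPM and did not pass, with changes of -0.76 ± 0.29 in LV after 4 h and -0.72 ± 0.35 in RV after 8 h.

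Among the carriers of glutamate, Slc25a18 (chr6:120773578-120794336, plus strand) was rare, with 2 to 73 estimated counts per library. In RV it had 0.146, 0.135 and 0.0653 CPM at 0 h, 0.146, 0.117 and 0.831 CPM after 4 h, and 0.201, 0.533 and 2.70 CPM after 8 h. The LV libraries had 0.207, 0.0675 and 0.156 CPM at 0 h, 0.249, 0.161 and 0.883 CPM after 4 h, and 0.432, 0.339 and 1.34 CPM after 8 h. The 8 h libraries were above those at 0 h in both ventricles, and replicate 3 was the highest at 4 h and at 8 h. The change in RV after 8 h was 3.30 ± 1.11 (adjusted p = 0.083) and rested on replicate 3, without which it was 1.60 (adjusted p = 0.37). This call was also lost without replicate 1, 2 or 3 of 0 h.

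Slc25a22, the glutamate carrier with the higher level, had 29.0, 56.0 and 49.6 CPM in RV at 0 h, 30.1, 40.6 and 65.3 CPM after 4 h, and 32.3, 43.0 and 77.6 CPM after 8 h. For LV the values were 25.7, 45.5 and 41.9 CPM at 0 h, 28.5, 40.9 and 67.7 CPM after 4 h, and 39.5, 40.2 and 79.3 CPM after 8 h. The libraries of different times overlapped, and its changes of 0.04 to 0.50 did not pass. Of the other amino acid carriers, Slc25a29, for basic amino acids, was at -0.73 ± 0.27 in RV after 8 h (adjusted p = 0.10) and at -0.59 ± 0.19 in LV (adjusted p = 0.12), with all LV libraries after storage below those at 0 h. Slc25a15, the ornithine carrier, was at -0.23 to -0.12 over the 4 comparisons, Slc25a38, a glycine carrier, at -0.04 to 0.05, and Slc25a44, for branched-chain amino acids, at -0.34 to -0.14.

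The mitoferrins, which bring iron to the matrix, did not pass. Slc25a28 had 16.8, 16.4 and 20.01 CPM in RV at 0 h, 17.1, 16.7 and 27.0 CPM after 4 h, and 15.1, 16.7 and 39.8 CPM after 8 h. The level in LV was 15.6, 16.8 and 16.4 CPM at 0 h, 18.2, 16.2 and 26.8 CPM after 4 h, and 17.6, 17.9 and 34.1 CPM after 8 h. Replicate 3 of each stored group was the highest, as for Slc25a18 and Slc25a22. Slc25a37 lay between 17.0 and 25.8 CPM in all 18 libraries. Of the glutathione carriers, Slc25a39 lay between 73.5 and 95.4 CPM in all libraries but replicate 3 of RV at 8 h, which had 50.8 CPM, and Slc25a40 ranged from 2.82 CPM in the same library to 9.76 CPM in LV at 0 h. The carriers of di- and tricarboxylates also did not pass, with changes of -0.30 to 0.29 for Slc25a1, the citrate carrier, and -0.18 to -0.04 for Slc25a10, the dicarboxylate carrier.

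Slc25a45 (chr19:5877808-5885878, plus strand), grouped here with carriers of unsettled substrate, had 1.61, 2.84 and 5.13 CPM in RV at 0 h, 0.803, 0.934 and 1.32 CPM after 4 h, and 1.30, 0.934 and 2.45 CPM after 8 h. In LV it had 1.65, 3.28 and 4.76 CPM at 0 h, 0.995, 2.09 and 1.29 CPM after 4 h, and 3.48, 1.73 and 1.92 CPM after 8 h. The RV libraries at 4 h were below those at 0 h, with a change of -1.63 ± 0.49 (adjusted p = 0.088). This call was lost with transcript-length offsets (adjusted p = 0.398) and without replicate 2 or 3 of 0 h, any replicate of 4 h or replicate 1 of 8 h (log2 -1.95 to -1.11, adjusted p up to 0.335). The others of this group, Slc25a34, Slc25a35, Slc25a47 and Slc25a53, did not pass, with changes of -0.72 to 0.21, and neither did the outer membrane member Slc25a46, at -0.30 to 0.05.

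**Figure D4:**
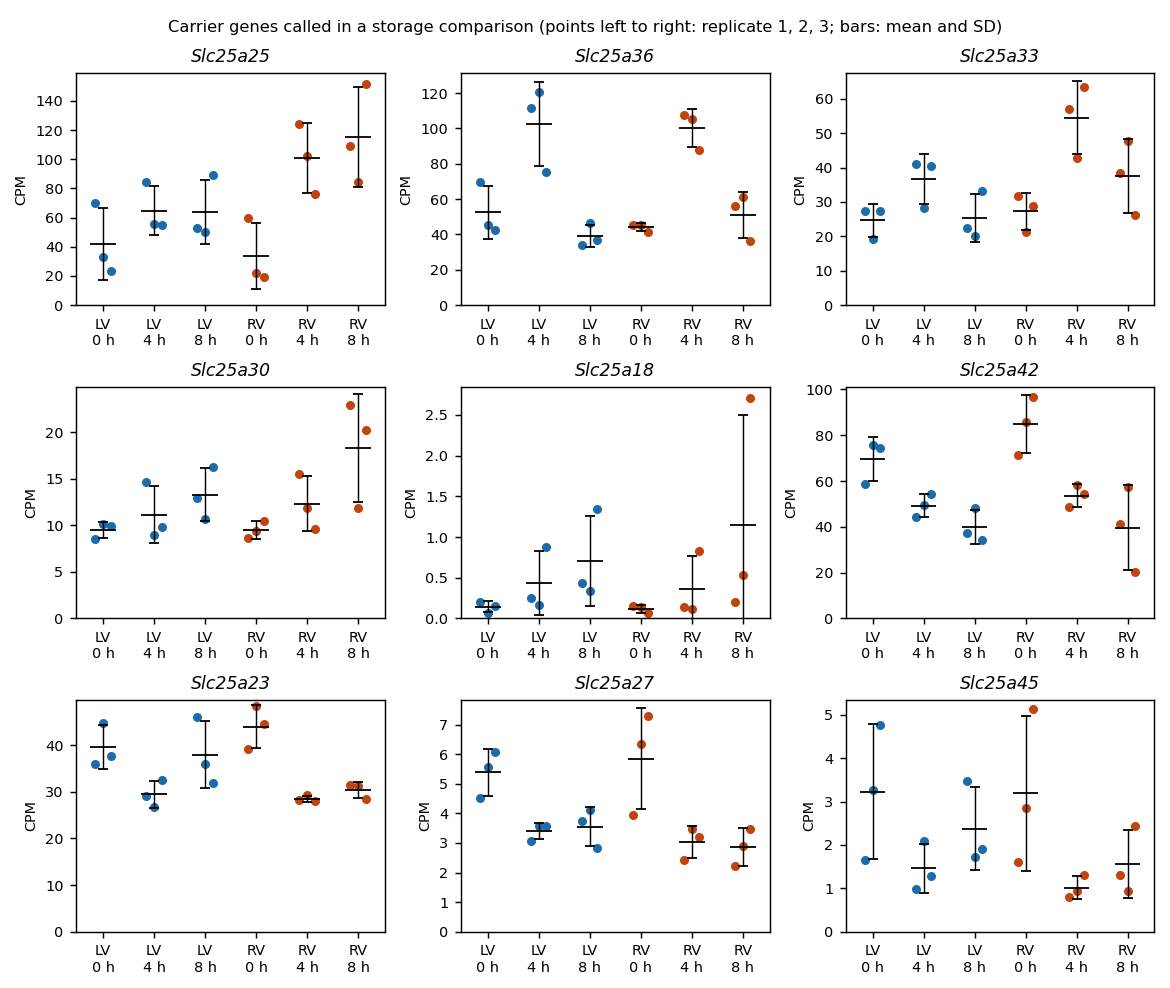
CPM of the members called after storage, 1 panel per gene, with LV and then RV by storage time, with a point per library and a bar for the mean ± SD (n = 3), cut at 0 for Slc25a18. Slc25a36 is highest at 4 h in both ventricles, Slc25a25 is higher in stored RV than in RV at 0 h, and Slc25a42 and Slc25a27 are lower in every stored library than in every 0 h library of the ventricle.

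Same-numbered libraries deviated together in RV, and a fit with the replicate number as a block made more calls there. In RV after 4 h it called the same number of members, 3 higher and 3 lower, beside 8.45% and 5.40% of all genes. In RV after 8 h it called 3 higher and 7 lower, beside 15.5% and 8.81% of all genes. The higher were Slc25a18, Slc25a25 (1.95, adjusted p = 0.014) and Slc25a30. The lower included Slc25a27 (-0.997, adjusted p = 0.0083) and Slc25a42 (-1.15, adjusted p = 0.030), and 5 that were not called without the block. These were Slc25a13 (-0.78, adjusted p = 0.086), Slc25a16 (-0.78, adjusted p = 0.063), Slc25a29 (-0.69, adjusted p = 0.067), Slc25a40 (-0.70, adjusted p = 0.0997) and Slc25a45 (-0.96, adjusted p = 0.054). For Slc25a13, Slc25a16 and Slc25a40 replicate 3 at 8 h was lowest (30.9, 5.59 and 2.82 CPM). Replicate 2 at 8 h (111, 20.5 and 7.73 CPM) lay within their range at 0 h. With 1 library left out and no block, their changes were as small as -0.29, -0.31 and -0.35. The block was not fitted to storage times without replicate 3. Each heart had a single storage time, so a number shared by storage times cannot name a heart. The numbers were judged to pair from these same data. In RV, Ddx3y, a Y-linked gene, was at 1.86 CPM in replicate 2 at 0 h and at 100.5 and 97.3 CPM after 4 and 8 h. Replicate 3 had 62.1 CPM at 0 h and 1.73 and 1.56 CPM after 4 and 8 h.

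Between 8 and 4 h of storage no member was called without the block, and 0% of all genes were called in either ventricle. At an unadjusted p under 0.05 there were 7 members and 1180 genes in LV and 3 members and 961 genes in RV. With the block the share of all genes called was 0.00687% in LV and 0% in RV, again with no member. Slc25a36 fell from 4 to 8 h by 0.98 ± 0.19 on the log2 scale in RV (adjusted p = 0.60, and 0.18 with the block). It was the 1 member that DESeq2 called in this comparison, at -1.38 in LV (adjusted p = 8.3e-05) and -0.97 in RV (adjusted p = 0.0085). The share of all genes that DESeq2 called there is not given. These DESeq2 calls therefore cannot be set against the edgeR shares above.

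The next comparisons asked whether the ventricles differed. Without a block no member was called between LV and RV at 0, 4 or 8 h, beside 0.159%, 0.0133% and 0.0331% of all 15093 genes, and 0, 1 and 3 members had an unadjusted p under 0.05, as did 484, 446 and 1669 genes. DESeq2 also called 0 members. Same-numbered LV and RV libraries of a storage time deviated together, and with these pairs as a block the shares of all genes called were 1.85%, 1.93% and 8.78%. The block called 0 members at 0 h, Slc25a25 at 4 h, and Slc25a25 and Slc25a35 at 8 h.

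Slc25a25 differed between the ventricles after storage. Its log2 ratio of LV to RV in pairs 1, 2 and 3 was 0.22, 0.56 and 0.28 at 0 h, -0.56, -0.88 and -0.48 at 4 h, and -1.04, -0.76 and -0.76 at 8 h. LV was thus higher in 3 of 3 pairs at 0 h and RV in 6 of 6 pairs after storage. With the block the difference was 0.35 ± 0.10 at 0 h (adjusted p = 0.10, below the fold limit), -0.64 ± 0.10 at 4 h (adjusted p = 0.0095) and -0.85 ± 0.10 at 8 h (adjusted p = 3.7e-04). The 4 h call was lost without pair 2 of 4 h (-0.53, adjusted p = 0.113). Slc25a35, of unsettled substrate, was higher in LV at 8 h by 0.60 ± 0.16 (adjusted p = 0.022), with ratios of 0.44, 0.39 and 1.07. This call was lost without pair 3 of 8 h, where the difference was 0.43 (adjusted p = 0.076). The ratios of Slc25a35 were also above 0 in each pair at 0 h (0.136, 0.555 and 0.125) and at 4 h (0.440, 0.123 and 0.438). Its higher level in LV was therefore not limited to stored hearts.

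The change with storage was then compared between ventricles directly. Without the block 0 members and 0% of all genes had a different change in LV and RV at 4 h, and 0 members and 0% at 8 h, with 0 and 2 members and 158 and 628 genes at an unadjusted p under 0.05. For Slc25a25 the difference of the changes without the block was -0.95 ± 0.63 at 4 h and -1.16 ± 0.63 at 8 h, each with an adjusted p of 1.0. With the block 0.305% of all genes were called at 4 h and 5.71% at 8 h, and Slc25a25 was the 1 member called at each time. Its change was smaller in LV than in RV by 0.99 ± 0.14 on the log2 scale at 4 h (adjusted p = 0.042) and by 1.21 ± 0.14 at 8 h (adjusted p = 0.0013). The 8 h difference was called in 9 of 9 fits that left out a pair (-1.28 to -1.10, adjusted p up to 0.011). The 4 h difference was not called without pair 1 or 2 of 0 h (adjusted p = 0.166 and 0.223) or pair 2 of 4 h (adjusted p = 0.151).

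Slc25a23 and Slc25a39 also differed in their change at 8 h with the block, by 0.47 ± 0.12 (adjusted p = 0.045) and 0.46 ± 0.12 (adjusted p = 0.042) toward LV, each below the fold limit. The LV to RV ratio of Slc25a23 was -0.12, -0.11 and -0.24 at 0 h and 0.55, 0.20 and 0.17 at 8 h, and that of Slc25a39 -0.15, -0.09 and -0.21 at 0 h and 0.16, 0.21 and 0.56 at 8 h. For both genes the ratio was below 0 in every pair at 0 h and above 0 in every pair at 8 h. The difference for Slc25a23 did not pass an adjusted p of 0.1 without pair 1, 2 or 3 of 0 h or pair 1 of 8 h (0.34 to 0.49, adjusted p = 0.109 to 0.161), and that for Slc25a39 did not pass without pair 1, 2 or 3 of 0 h (0.42 to 0.49, adjusted p = 0.101 to 0.144).

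The pair that holds replicate 3 of RV at 8 h affected these counts. Without it, 5 members differed between LV and RV at 8 h under the block, beside 10.3% of all 15192 genes. These were Slc25a14 (0.95, adjusted p = 0.093), Slc25a25 (-0.90), Slc25a27 (0.63, adjusted p = 0.023), Slc25a33 (-1.003, adjusted p = 7.5e-05) and Slc25a45 (1.21, adjusted p = 0.0099). The change to 8 h then differed for Slc25a25, Slc25a27 (0.72, adjusted p = 0.054), Slc25a33 (-0.86, adjusted p = 0.0017), Slc25a36 (-0.78, adjusted p = 0.021) and Slc25a45 (1.16, adjusted p = 0.051), beside 7.53% of all genes. Slc25a25 and Slc25a33 had the greater change in RV. For Slc25a36 the ventricles moved in opposite directions. Replicates 1 and 2 at 8 h had 56.0 and 61.0 CPM in RV, against 41.3 to 45.3 CPM at 0 h. In LV they had 34.2 and 46.2 CPM, against 42.3 to 69.6 CPM at 0 h. These fits were chosen after the data had been seen.

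**Figure D5:**
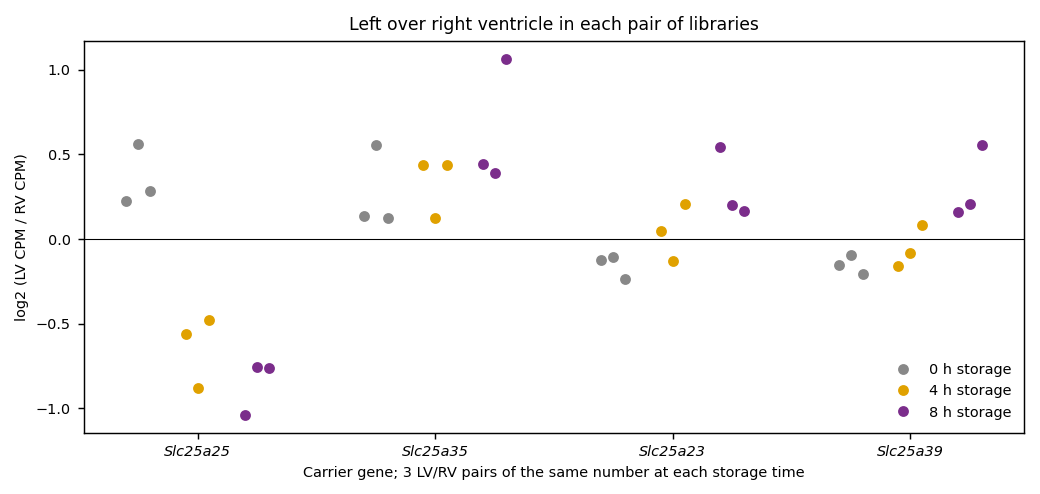
Log2 ratio of LV to RV CPM in the 9 same-numbered pairs, 3 at each storage time, with the line at 0 marking equal levels. Slc25a25 and Slc25a35 were called between ventricles under the block. Slc25a23 and Slc25a39 passed only the adjusted p for the difference of their changes at 8 h, below the fold limit. For Slc25a25 the 3 pairs at 0 h lie above 0 and the 6 pairs after storage lie below it, from -0.48 to -1.04.

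Of the 33 tested members with at least 2 transcripts in the files, Slc25a14, Slc25a51 and Slc25a53 had a leading transcript that was not the same in all 6 groups. The leading share in these 3 genes was low or variable, with a median of 33.7% for Slc25a14, 22.5% for Slc25a51 and 21.1% for Slc25a53. For Slc25a12 an annotated nonsense-mediated decay transcript led in all 6 groups with 57.6 to 76.3% of TPM, and for Slc25a37 a retained-intron transcript led with 41.8 to 66.0%. In Slc25a36 a transcript whose first base at chr9:97084470 lies inside the gene held 34.8 to 62.1%, and the transcript that begins near the printed window held 13.7 to 39.2%.

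Calls among the genes around the carriers are given here from lists of companion genes. Of all genes, 2.40% were higher and 0.398% lower in LV after 4 h, and 5.46% and 1.26% after 8 h. In RV the shares were 6.17% and 3.91% after 4 h, and 13.0% and 5.26% after 8 h. None of the 4 tested carriers with other symbols (uncoupling proteins and Mtch genes) and none of 13 genes of carrier import was called after storage in either ventricle. Of 23 other mitochondrial transporters none was called without the block. Of 30 enzymes that use the carried substrates, Mthfd2, of mitochondrial folate metabolism, rose in RV after 4 h (2.46, adjusted p = 0.020) and 8 h (2.38, adjusted p = 0.012). Its RV level was 3.54, 1.76 and 1.80 CPM at 0 h, 19.5, 10.4 and 8.87 CPM after 4 h, and 18.1, 6.18 and 12.6 CPM after 8 h. Cpt1a, which like Cpt1b makes acylcarnitine carried by Slc25a20, was lower after 8 h in LV (-0.68, adjusted p = 0.081) and RV (-0.96, adjusted p = 0.022). Cpt1b of the same list had the higher level, with 587.1 to 645.7 CPM in LV at 0 h and 426.6 to 481.2 CPM after 8 h. In RV Cpt1b had 576.6 to 640.9 CPM at 0 h and 313.1 to 523.9 CPM after 8 h, so that neither ventricle showed overlap.

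Of 15 regulators of mitochondrial genes, Creb1, whose protein binds the TGACGTCA element printed above, was higher in RV after 4 h (0.79, adjusted p = 0.051) and 8 h (0.90, adjusted p = 0.019). Foxo1 was higher at both times (0.65, adjusted p = 0.053, and 0.81, adjusted p = 0.015), as was Ppard (0.72, adjusted p = 0.064, and 0.59, adjusted p = 0.076). Esrrb was lower after 8 h in LV (-0.67, adjusted p = 0.093) and RV (-0.97, adjusted p = 0.089), and Ppargc1b in LV (-0.62, adjusted p = 0.052). The other regulators did not pass in either ventricle, Ppargc1a, the coactivator of mitochondrial biogenesis, among them. The shares of all genes called are those given with the companion genes above. Activity of these proteins was not measured.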

How the data were processed

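RNA of 18 libraries (LV and RV at 0, 4 and 8 h, 3 each) was analysed, with group and replicate number taken from the labels. The authors deposited estimated counts per transcript from Kallisto (version 0.43.0 in the methods) on GRCm38 transcripts, which are not normalized between libraries, and the deposited TPM values are scaled within each library. Transcript lengths were deposited beside them. Counts were summed per gene with GENCODE M21 and rounded, and 1259 of 111462 transcripts without a match (at most 0.383% of counts) were left out. Reads that fit several genes or transcripts had been divided between them, so values of close paralogs and single transcripts are less certain.

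Genes with low counts were dropped by filterByExpr. Library sizes were scaled by TMM, and edgeR 4.0.16 in R 4.3.3 gave the quasi-likelihood test with Benjamini-Hochberg adjustment. The 9 libraries of a ventricle entered the comparisons of storage times, and all 18 those between ventricles. Alternatives were DESeq2 1.42.0, RLE factors, length offsets, no filter, other thresholds, mitochondrial genes left out, all libraries in 1 fit, the replicate block, and each library left out. Scripts used Python 3.11.15, pandas 2.3.3, numpy 2.4.6 and matplotlib 3.10.9, and the tests were checked on simulated data.

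The numbers of the labels paired LV with RV at each storage time (correlation of deviations from group means 0.559 to 0.844) and paired storage times in RV (0 and 4 h 0.155 to 0.346, 0 and 8 h 0.223 to 0.297, 4 and 8 h 0.447 to 0.571) and 4 and 8 h in LV (0.514 to 0.693), by the rule that each pair exceeds 0.1. They did not pair 0 and 4 h (0.062 to 0.312) or 0 and 8 h (-0.042 to 0.122) in LV. By the methods, LV and RV were taken from each heart, but no source ties a number to a heart or says which hearts of different times belong together. Where libraries of a group share a source, p-values measure only the spread between these libraries.

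Members, roles, companion genes (carriers with other symbols, import, other transporters, enzymes, regulators) and cell type markers were chosen with earlier results of these data known. Values by library are given for members called in any comparison, the 6 most abundant, and paralogs of the same substrate. Summed levels of the other marker lists were 329 to 793 CPM (endothelial), 624 to 1506 (fibroblast), 604 to 1228 (smooth muscle and pericyte), 76.8 to 246 (macrophage), 0.175 to 1.05 (lymphocyte), 2.40 to 194 (erythroid), 0.678 to 9.19 (adipocyte), 16.5 to 22.7 (brown adipocyte), 7.11 to 252 (atrial) and 11.6 to 58.4 (mesothelium). Promoter windows came from RefSeq tables (GRCm38.p6). A planned comparison of protein sequences was not run. Some genes of these lists are not reported here, although they entered the fits and the counts.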

Additional observations from a re-analysis of the deposited data

Results flagged for a closer look

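The following differences between LV and RV in the change with storage passed the test of the difference itself in edgeR with same-numbered LV and RV libraries as a block. Slc25a25 differed by -0.99 at 4 h and by -1.21 at 8 h, with the greater increase in RV. At 8 h Slc25a23 differed by 0.47 and Slc25a39 by 0.46, each toward a higher level in LV than in RV and each lost when any pair of 0 h was left out (adjusted p = 0.109 to 0.154 and 0.101 to 0.144). Slc25a23 was also lost without pair 1 of 8 h (adjusted p = 0.161). Without the block none of these passed, and what the same-numbered libraries share beyond the ventricles of a heart was not identified. The sum of cardiomyocyte markers, led by Myh6, was lower in RV than in LV in pair 3 of 8 h (26450 against 38790 CPM), and its part in the 8 h differences was not tested.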

How the results depend on the processing

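Of the results recomputed for single members in the comparisons that called them with or without the block, 0 reversed direction, 386 stayed on their side of the threshold, 53 fell below it and 65 rose above it. Over all members the difference of the changes at 8 h was positive for 31 of 40, and for 19 of 41 without replicate 3 of RV at 8 h. The share of all genes above 0 was not counted, so these counts describe the members only. In the fits with the block and a pair left out, the median of all genes was also above 0, at 0.0038 to 0.0484. The median of the members was 0.0636 to 0.2751 in the same fits, and both were lowest without pair 3 of 8 h. For LV at 4 h the number of members called was 0 with RLE factors, length offsets, mitochondrial genes left out, or an adjusted p under 0.05 without a fold limit, and 3 with DESeq2. For LV at 8 h it was 0 in the fit of all 18 libraries, 3 with DESeq2 and 4 with the replicate block (Slc25a18 higher, Slc25a27, Slc25a29 and Slc25a42 lower), although the numbers did not pair LV at 0 h with LV after storage. For RV it was 3 at 4 h with an adjusted p under 0.05 and no fold limit, and at 8 h 8 with all libraries and 10 with the block. DESeq2 called 1 member between 8 and 4 h in each ventricle. The block called 1 member between LV and RV at 4 h, 2 at 8 h, and 1 for the difference of the changes at each time, and it changed no other count of calls by more than 1.5 times. With 1 library left out the number called ran from 0 to 3 in LV at 4 h, 0 to 5 in LV at 8 h, 1 to 7 in RV at 4 h and 0 to 13 in RV at 8 h, and was 0 in every such fit for 8 against 4 h, LV against RV and the difference of the changes. The share of all genes called also moved with the setting and is not given beside these counts. In RV at 8 h it was 13.0% higher and 5.26% lower without the block, and 15.5% and 8.81% with it. The counts therefore do not show a trait of the carriers. The causes of the differences between settings were not tested. Counts limit the rare members, such as Slc25a18 with 2 to 73 estimated counts, most.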

Other observations

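Some members stood apart in replicate 3 of the stored groups in both ventricles. Slc25a24 had 1.66 to 4.08 CPM in replicate 3 of both ventricles at 4 and 8 h, and 4.53 to 9.80 CPM in the other 14 libraries, with replicate 3 at 0 h at 7.19 and 9.80 CPM. Slc25a28 had 26.8 to 39.8 CPM in the former and 15.1 to 20.01 CPM in the latter. Ddx3y, a Y-linked gene, was at 1.47 to 2.44 CPM in replicate 3 at 4 and 8 h and in replicate 2 at 0 h of both ventricles, and at 62.1 to 115 CPM in the other 12 libraries. A difference between male and female hearts in these members was not tested.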
